A study of Mus musculus with 2 samples.

Results

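The tricarboxylic acid cycle enzymes described here are 9 genes, Cs, Idh3a, Idh3b, Idh3g, Ogdh, Dlst, Suclg1, Fh1 and Mdh2, taken by symbol from the 32285 genes that both single-cell libraries list. All 9 were found, and each had at least 200 UMIs over both libraries in every T cell state, so none was lost to a filter on low counts. A UMI, or unique molecular identifier, marks 1 captured transcript molecule. The values come from a pair of 10x Genomics libraries, 1 for each genotype (WT and KO), each of YFP-positive regulatory T cells (Tregs) sorted from the spleens of 7-day-old animals on the C57BL/6J background. KO mice are Zfp335fl/flFoxp3-Cre, in which Cre removes floxed Zfp335, a zinc finger transcription factor, from cells that express Foxp3. By the study's methods the WT mice carry the same Foxp3 allele with a YFP-Cre fusion and no floxed Zfp335, so that both libraries come from Cre-bearing Tregs. Foxp3 drives the Cre in both groups, and how many mice were pooled into a library is not stated.

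In the cycle, acetyl-CoA from pyruvate or fatty acids is joined to oxaloacetate to make citrate, and a ring of dehydrogenases then returns oxaloacetate while it loads electrons onto NADH and FADH2 for the respiratory chain. The same intermediates feed fatty acid, haem and amino acid synthesis. Growing and dividing T cells draw on both uses, whereas resting T cells are known for low metabolic demand. Cs encodes citrate synthase, the entry step. Idh3a, Idh3b and Idh3g encode the 3 subunits of the NAD-dependent isocitrate dehydrogenase, and Idh3a is the catalytic one. Ogdh and Dlst encode 2 components of the 2-oxoglutarate dehydrogenase complex. Suclg1 encodes the alpha subunit of succinyl-CoA ligase, the subunit shared by its ATP- and GTP-forming types, Fh1 encodes fumarase, and Mdh2 encodes the mitochondrial malate dehydrogenase that closes the ring.

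The rule on barcodes, which asked for 300 genes or more and allowed up to 5% of UMIs from mitochondrial genes, kept 8053 of 14524 WT and 13767 of 18134 KO barcodes. After removal of likely doublets 7828 WT and 12758 KO barcodes were clustered, with the 9 members and the other fixed genes of the cycle left out of the clustering. Of 14 clusters, 5 were single-cluster T cell states with barcodes of both libraries, called resting, activated and effector Treg-like and S-phase and G2/M T cell-like from marker lists. Resting Treg-like barcodes numbered 2665 in WT and 4726 in KO, activated 792 and 1219, S-phase 567 and 717, G2/M 559 and 270, and effector 1570 and only 60. T lineage was assigned from the mean level of 5 T cell receptor and CD3 genes. That level lay between 800.4 and 1259 CPM in the states and between 112 and 345 CPM in clusters of other lineages. The gap follows from this rule and is no check of the label. Genes of the effector list or of effector cells, Cxcr3 and Itga2, also led the G2/M cluster beside Ccnb1, Plk1 and Cenpe. The WT barcodes of that cluster went partly against its name, since the 10 G2/M markers summed to 2285 CPM in them, fewer than the 3603 CPM of WT S-phase barcodes, against 5096 CPM in its KO barcodes, and the name G2/M is kept here only as the name of the cluster. Foxp3 was present in every state, at 21.9 to 66.5 CPM, against 4.32 to 13.2 CPM in erythroid-like and neutrophil-like clusters, 20.6 CPM in WT B cell-like barcodes and 0 in KO B cell-like barcodes. The lowest values of the states, 21.9 CPM in KO effector and 22.6 CPM in WT S-phase barcodes, were thus near that of WT B cell-like barcodes. The B cell-like value comes from 44 barcodes with 194090 UMIs, and the KO effector value from 60 with 411654. Both thus rest on few Foxp3 UMIs. Shallow T-lineage clusters that were led by haemoglobin or neutrophil granule genes stayed unnamed and held 1149 WT and 4946 KO barcodes together with a small cluster led by C1q genes. The libraries shared 70 barcode sequences, 24 of them among the clustered barcodes.

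Levels are CPM, the summed UMIs of a gene per 1000000 UMIs of the same library and state, with exact Poisson 95% intervals. Ratios carry exact conditional 95% intervals. Both intervals cover counting error only, and with 1 library per genotype no difference between genotypes can be tested, so that no p-value is given and the spread between mice is unknown. A gene is counted as lower where its ratio lies over 20% below 1 (under 0.8) and as higher where it lies over 25% above 1, which are the same fold on a log scale, and that count is read against the share of all genes past these limits. Zfp335 itself, which checks the labels, had 8.22 (7.42 to 9.08) CPM in WT and 0.802 (0.570 to 1.10) CPM in KO over all T-lineage clusters, a ratio of 0.0976 (0.0683 to 0.136).

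The first question was which enzymes of the cycle differed between WT and KO Tregs of the same state. Cs and Suclg1 were lower in KO in all 5 states. Cs was at 0.620 of WT in resting and 0.531 in effector Treg-like barcodes, the ends of its range, and Suclg1 ranged from 0.661 in resting to 0.334 in G2/M barcodes. Idh3b, Idh3g, Ogdh and Mdh2 lay within these fold limits in every state as first computed, and each passed them in at least 1 state under at least 1 of the alternatives given in the closing section. Idh3a, Fh1 and Dlst passed them in some states and not in others.

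**Figure D1:**
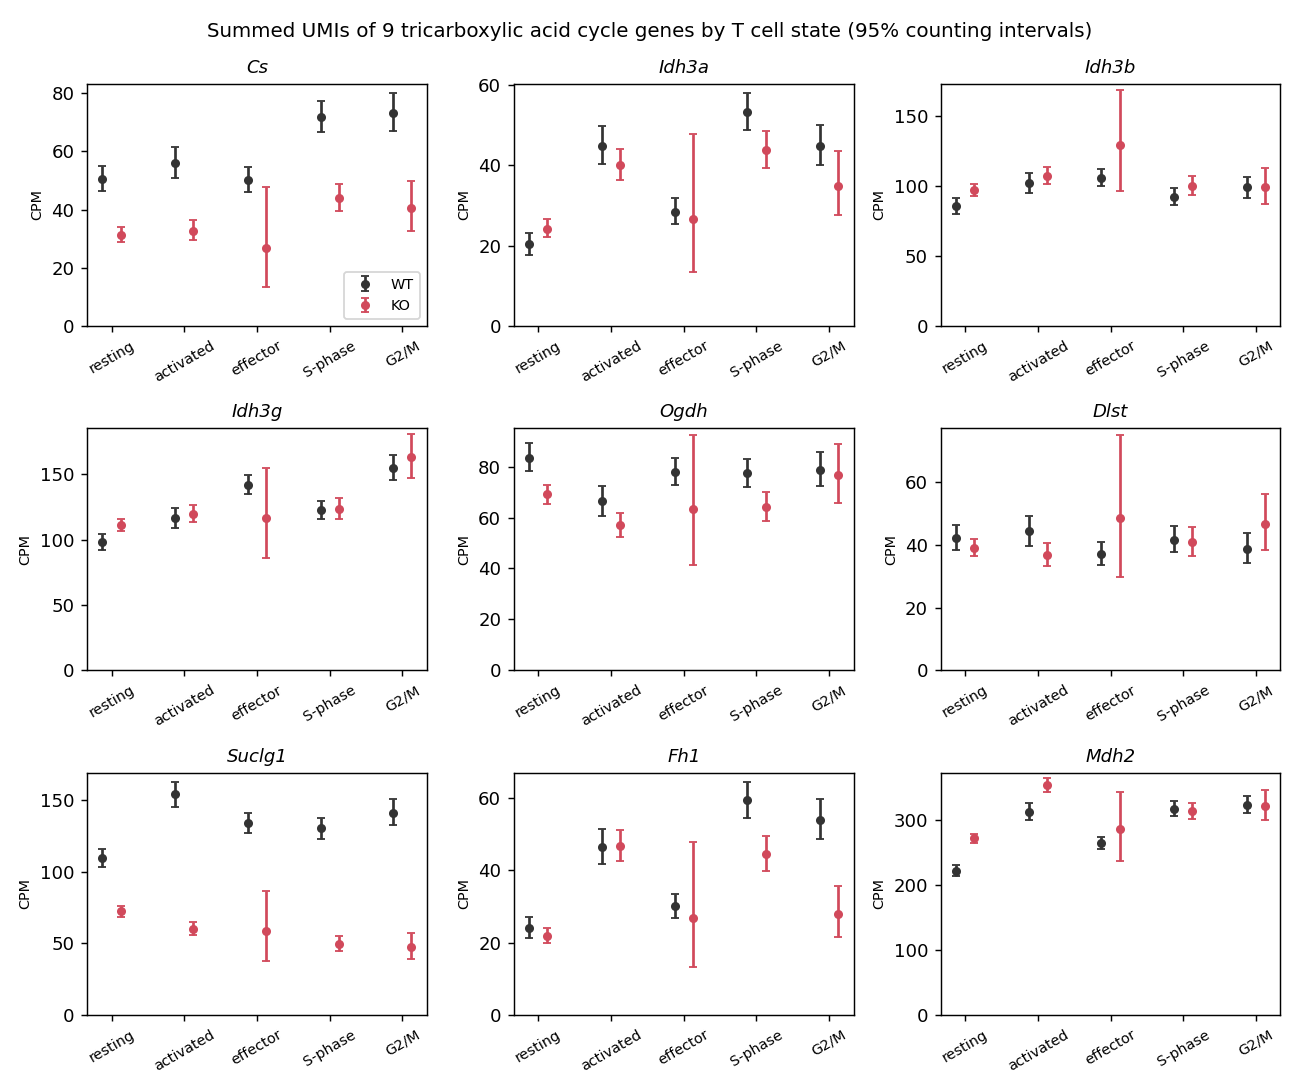
CPM of each member in the 5 T cell states (x axis) in the WT library (dark points) and the KO library (red points), with exact Poisson 95% intervals as bars. The WT and KO intervals of Cs are apart in resting, activated, S-phase and G2/M barcodes, and those of Suclg1 in all 5 states.

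Cs, the citrate synthase gene, lies on chromosome 10 from 128337734 to 128362479 on the plus strand of GRCm38. Suclg1 lies on chromosome 6 from 73248382 to 73276911, also on the plus strand. Since these were the members lower in every state, the genomic sequence before their starts is shown, copied from the RefSeq promoter table of GRCm38.p6. For Cs the window is chr10:128337477-128337726, the 250 bases before the RefSeq start. For Suclg1 it is chr6:73248255-73248381, which stops where the annotated gene begins and so holds 127 bases. Both are given on the plus strand, with capitals for matches to CCAAT or GGGCGG on either strand.
Cs: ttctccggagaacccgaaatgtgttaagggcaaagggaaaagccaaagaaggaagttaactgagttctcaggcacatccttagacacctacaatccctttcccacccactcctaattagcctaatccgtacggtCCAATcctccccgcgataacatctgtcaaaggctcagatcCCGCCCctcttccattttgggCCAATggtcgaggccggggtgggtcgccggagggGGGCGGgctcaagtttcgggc
Suclg1: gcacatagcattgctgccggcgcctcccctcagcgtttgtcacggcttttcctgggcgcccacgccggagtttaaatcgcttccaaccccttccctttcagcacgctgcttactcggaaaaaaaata
The Cs window holds 2 matches to CCAAT and 2 to GGGCGG, none of which overlap, and the 250-base Suclg1 window of the table holds none of either. Of 32851 promoter windows of that length in the table, 33.8% hold CCAAT and 32.7% hold GGGCGG on either strand, so that both are common. The motifs CCGGAAG (ETS), CACGTG (E-box) and TGACGTCA (CRE), searched on both strands, had no match in either window and are found in 6.91%, 6.02% and 1.55% of all windows. Of the 8 members with a window, CCAAT was found for Cs, Fh1, Idh3b and Ogdh, GGGCGG for Cs, Dlst, Fh1, Mdh2 and Ogdh, TGACGTCA for Mdh2 and Ogdh, CCGGAAG for Idh3g and CACGTG for Ogdh. A match is a run of letters and not a measured binding site.

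In resting Treg-like barcodes Cs had 50.6 (46.4 to 55.0) CPM in WT and 31.4 (28.9 to 33.9) CPM in KO, a ratio of 0.620 (0.552 to 0.697). In activated Treg-like barcodes the levels were 55.9 (50.8 to 61.4) and 32.7 (29.4 to 36.4) CPM, a ratio of 0.586 (0.507 to 0.676). In S-phase barcodes they were 71.8 (66.5 to 77.4) and 44.0 (39.4 to 48.9) CPM, a ratio of 0.612 (0.536 to 0.698). The intervals of the levels were apart in each of these states, and the ratios hardly differed between them. In G2/M barcodes the levels were 73.4 (67.1 to 80.0) and 40.6 (32.8 to 49.7) CPM, a ratio of 0.553 (0.439 to 0.691). In effector Treg-like barcodes WT had 50.3 (46.2 to 54.6) CPM, whereas the KO value of 26.7 (13.3 to 47.8) CPM rests on 11 UMIs and its interval overlaps that of WT. The effector ratio was 0.531 (0.264 to 0.958), and it lay within the fold limits under 2 of 8 alternatives. Over all T-lineage clusters, unnamed ones included, Cs had 2788 UMIs in WT and 1722 in KO, a ratio of 0.598 (0.563 to 0.635). Of all genes with at least 200 UMIs, 4.88% had a lower ratio than Cs in resting, 3.58% in activated and 4.22% in S-phase barcodes. Csl, a near copy of Cs in the mouse genome, had 0 UMIs in every class of both libraries, which over T-lineage clusters allows up to 0.0637 CPM in WT and 0.0617 CPM in KO at 3 UMIs. How many reads match both genes cannot be read from the counts. Cs was not among the metabolic genes that the study selected from these libraries.

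Suclg1, the succinyl-CoA ligase alpha subunit gene, had 109 (103 to 116) CPM in WT and 72.3 (68.6 to 76.2) CPM in KO resting Treg-like barcodes, a ratio of 0.661 (0.612 to 0.715). In activated Treg-like barcodes the levels were 154 (145 to 163) and 60.2 (55.6 to 65.0) CPM, a ratio of 0.391 (0.355 to 0.431). In effector Treg-like barcodes they were 134 (127 to 141) and 58.3 (37.4 to 86.7) CPM, the latter from 24 UMIs, a ratio of 0.436 (0.278 to 0.651). The KO interval lay below the WT interval in each of these states, and the activated ratio lay below the interval of the resting ratio. In S-phase barcodes Suclg1 had 130.2 (123 to 138) and 49.5 (44.7 to 54.7) CPM, a ratio of 0.381 (0.339 to 0.427). In G2/M barcodes it had 141 (133 to 150.4) and 47.1 (38.7 to 56.9) CPM, a ratio of 0.334 (0.271 to 0.407), below which only 1.16% of all genes lay. Suclg1 is 1 of the genes that the study chose on these libraries, so its direction here is not independent evidence. The study also reports lower Suclg1 in Tregs of tamoxifen-treated ERCre Zfp335fl/fl mice and of heterozygous Foxp3Cre/+ Zfp335fl/fl mice. Those data were not read here. The counts of lower members below include Suclg1.

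In resting Treg-like barcodes 2 of 9 members were lower in KO and 0 higher, against 24.8% lower and 7.81% higher of 8031 genes. A count of 2 of 9 is near that background. The median log2 ratio of the members was -0.11 and that of all genes -0.08. In activated Treg-like barcodes the same counts of 2 and 0 stood against 20.9% lower and 9.25% higher of 6701 genes, with medians of -0.17 for the members and -0.07 for all genes. In effector Treg-like barcodes 2 members were lower and Dlst higher, against 27.3% and 17.5% of 5611 genes, with medians of -0.11 and -0.02. In these 3 states the count of lower members was thus near the share of all genes, and both lower members were Cs and Suclg1.

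The counts of lower members were larger in S-phase and G2/M barcodes. Counts over 9 genes are too small to be set apart from the shares of all genes. The calls of Fh1 in S-phase and of Idh3a in G2/M barcodes did not hold under every alternative. In S-phase barcodes 3 of 9 were lower in KO, Cs, Suclg1 and Fh1, and 0 higher, against 14.6% lower and 17.5% higher of 6617 genes, with a median of -0.27 for the members and 0.03 for all genes. In G2/M barcodes 4 of 9 were lower, Idh3a being the fourth, and 0 higher, against 21.5% and 20.2% of 4907 genes. The G2/M median of the members was -0.03 and that of all genes 0.00, with the other 5 members at 0.976 to 1.20 of WT. Over all T-lineage clusters 3 of 9 members were lower, Cs, Suclg1 and Fh1, and 0 higher, against 21.6% and 11.4% of 10171 genes. Fh1 was there at 0.790 (0.739 to 0.845) and past the limit under 4 of 8 alternatives. This sum mixes states that the libraries held in unequal shares.

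**Figure D2:**
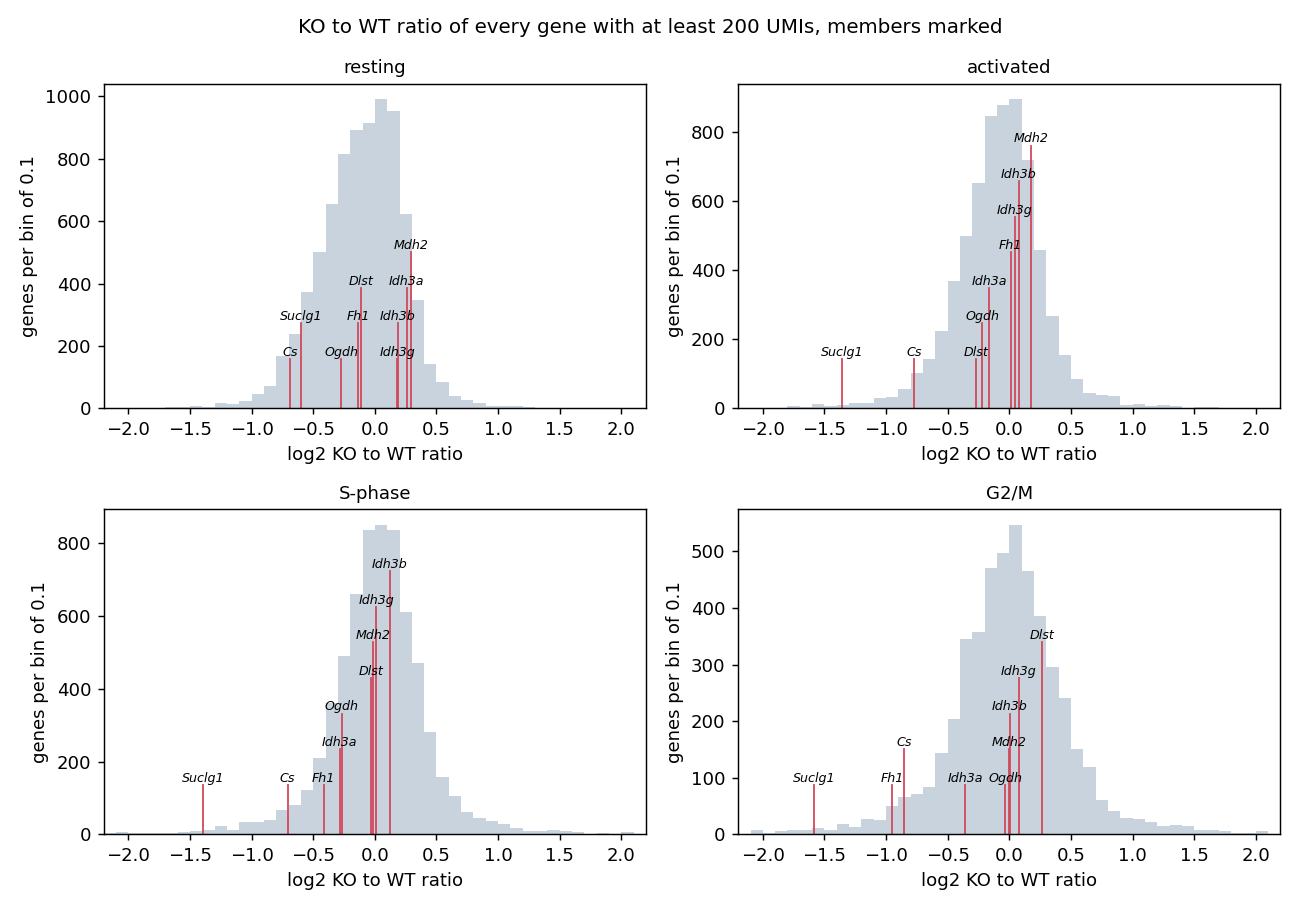
Distribution of the log2 KO to WT ratio over all genes with at least 200 UMIs (bars, genes per bin of 0.1) in 4 states, with the 9 members marked by red lines whose height only separates the names. Suclg1 lies toward the left end of the distribution in activated, S-phase and G2/M barcodes, and Cs lies in the left part of it in all 4 panels. The other members lie on both sides of its centre, with Idh3a, Idh3b, Idh3g and Mdh2 in its right part in resting barcodes.

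Fh1, which encodes fumarase (chromosome 1, 175600374 to 175625635, minus strand), was near WT in resting barcodes, with 24.0 (21.2 to 27.1) CPM in WT and 21.8 (19.8 to 24.0) in KO, and in activated barcodes, with 46.4 (41.8 to 51.5) and 46.7 (42.7 to 51.1) CPM. It was lower in KO S-phase barcodes, with 59.4 (54.6 to 64.5) CPM in WT and 44.5 (39.9 to 49.5) in KO, a ratio of 0.750 (0.654 to 0.859). In G2/M barcodes it had 54.0 (48.7 to 59.7) and 27.9 (21.5 to 35.7) CPM, a ratio of 0.517 (0.390 to 0.676). The genotypes overlapped in the first pair of states and were apart in S-phase and G2/M barcodes. WT and KO barcodes of the G2/M cluster differed in cell cycle and effector markers, and the part of this in the ratio was not tested. The effector ratio of 0.888 (0.439 to 1.61) rests on 11 KO UMIs and has an interval that includes both 1 and the G2/M ratio. The S-phase call was lost under 2 of 8 alternatives, with ratios of 0.676 to 0.879 over all of them. Kmo, on the opposite strand, overlaps Fh1 and had under 200 UMIs in T-lineage clusters.

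Idh3a, the catalytic isocitrate dehydrogenase subunit gene (chromosome 9, 54586334 to 54604661, plus strand), went above WT in 1 state and below it in others. Its ratio was 1.20 (1.02 to 1.41) in resting, 0.892 (0.772 to 1.03) in activated, 0.939 (0.464 to 1.70) in effector, 0.821 (0.714 to 0.944) in S-phase and 0.779 (0.602 to 0.999) in G2/M barcodes. The resting levels were 20.3 (17.7 to 23.1) CPM in WT and 24.2 (22.1 to 26.5) in KO, whose intervals overlap, and the G2/M levels were 44.8 (40.0 to 50.05) and 34.9 (27.7 to 43.4) CPM, which overlap as well. The G2/M direction turned under 2 alternatives, clustering at resolution 1.0 with a ratio of 2.21 on 4 WT UMIs and thinning to 1000 UMIs per barcode with a ratio of 2.07 on 12 UMIs in each library. The S-phase direction turned with thinning as well, to a ratio of 1.20, while the resting ratio became 1.43. Idh3b (chromosome 2, 130279309 to 130284547, minus strand) and Idh3g (chromosome X, 73778963 to 73786897, minus strand), the regulatory subunit genes, had ratios of 1.00 to 1.22 and 0.821 to 1.14 over the states. In resting barcodes Idh3b had 85.2 (79.7 to 90.9) CPM in WT and 96.9 (92.6 to 101) in KO, and Idh3g had 98.1 (92.3 to 104) and 111 (107 to 116) CPM, both apart and both higher in KO by less than 25%. As first computed, the 3 subunits of 1 enzyme thus kept no common order between genotypes in S-phase and G2/M barcodes. The end of Idh3b overlaps that of Nop56 on the opposite strand. Nop56 had a ratio of 1.45 (1.41 to 1.49) over T-lineage clusters and of 1.18 in resting barcodes.

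Ogdh (chromosome 11, 6291633 to 6356642, plus strand) encodes the E1 component of the 2-oxoglutarate dehydrogenase complex and was below WT in all 5 states, with ratios of 0.810 to 0.976. Thinning gave 0.726 in resting and 0.672 in activated barcodes, past the lower limit. In resting barcodes it had 83.5 (78.1 to 89.1) CPM in WT and 69.1 (65.5 to 72.9) in KO, which are apart, and in S-phase barcodes 77.3 (71.8 to 83.1) and 64.2 (58.7 to 70.1) CPM, also apart. In G2/M barcodes it had 78.7 (72.2 to 85.5) and 76.8 (65.9 to 89.0) CPM, which overlap. Dlst (chromosome 12, 85110833 to 85134845, plus strand) encodes the E2 component of the same complex and had ratios of 0.926 (0.824 to 1.04) in resting, 0.828 (0.714 to 0.959) in activated, 0.980 (0.843 to 1.14) in S-phase and 1.20 (0.954 to 1.51) in G2/M barcodes. Its effector ratio of 1.30 (0.789 to 2.04), the only value of a member above the upper limit, rests on 20 KO UMIs and its interval includes 1.

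Mdh2 (chromosome 5, 135778480 to 135790398, plus strand) was higher in KO resting barcodes, by less than 25%, with 223 (214 to 232) CPM in WT and 272 (265 to 279.6) in KO and a ratio of 1.22 (1.17 to 1.28). In activated barcodes the levels were 313 (301 to 326) and 354 (343 to 366) CPM, a ratio of 1.13 (1.07 to 1.19). In S-phase and G2/M barcodes the ratios were 0.987 (0.936 to 1.04) and 0.997 (0.916 to 1.08), the latter with a range of 0.740 to 1.42 over 5 alternatives. The genotypes were apart in resting and activated barcodes and overlapped in S-phase and G2/M barcodes. The sum over members leans on Mdh2, which contributed the most UMIs to it in every state. The summed level of the 9 members was 736 (719.7 to 752) CPM in WT and 739 (727 to 751) in KO resting barcodes, which overlap, although Cs and Suclg1 were lower there. In S-phase barcodes the sums were 966 (947 to 986) and 824 (804 to 845) CPM, a ratio of 0.853 (0.826 to 0.881), and in G2/M barcodes the ratio was 0.852 (0.810 to 0.896).

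**Figure D3:**
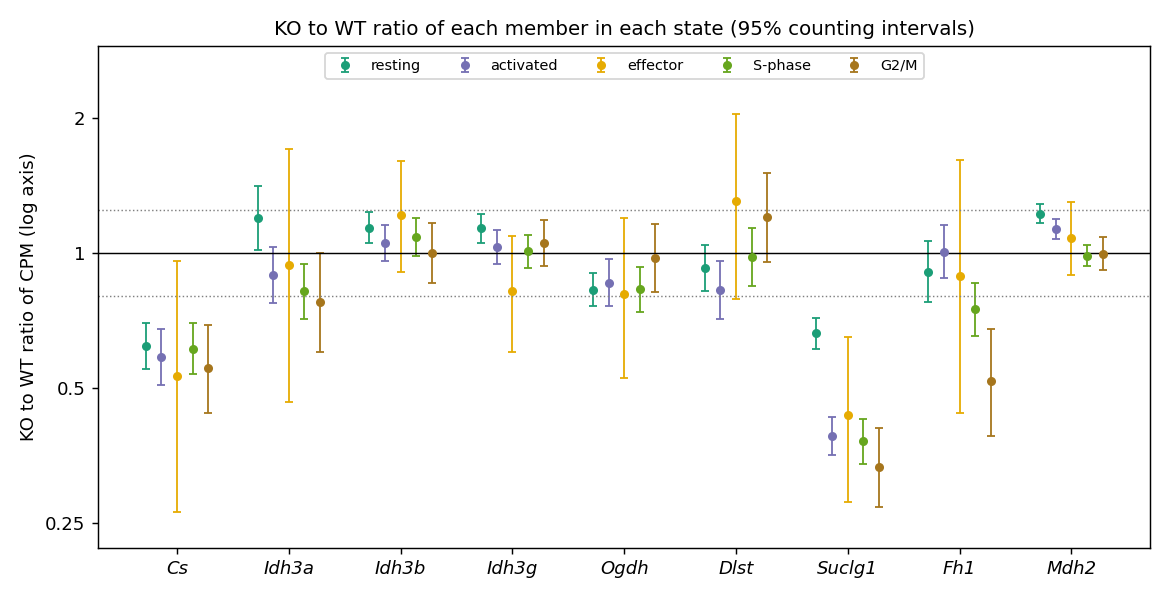
KO to WT ratio of CPM (log axis) of each member in each of the 5 states, with exact conditional 95% intervals as bars, a solid line at 1 and dotted lines at the fold limits. All points of Cs and Suclg1 lie below the lower dotted line, and all points of Idh3b, Idh3g, Ogdh and Mdh2 lie between the dotted lines.

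Other markers moved with the genotypes within the states. The summed level of 10 effector Treg markers was 1193 CPM in WT and 1014 in KO resting barcodes, 2513 and 1031 in activated, 4717 and 1461 in S-phase, and 7039 and 2358 in G2/M barcodes. The WT activated, S-phase and G2/M barcodes thus carried more effector transcripts than the KO ones. The sum was highest of all classes in WT G2/M barcodes, above the 6156 CPM of WT effector barcodes. The cell cycle markers differed as well. The 10 S phase markers summed to 12176 CPM in WT and 7621 in KO S-phase barcodes, and the 10 G2/M markers to 2285 and 5096 CPM in G2/M barcodes. The S-phase and G2/M states thus held unlike cell cycle content in the 2 libraries. The 11 erythroid markers summed to 577 CPM in WT and 911 CPM in KO resting barcodes and to 324 and 1473 CPM in S-phase barcodes, and the 10 neutrophil markers to 392 and 251 CPM in resting barcodes. The part of these transcripts in the ratios of the members was not tested. The median depth was 3850 UMIs in WT and 3720 in KO resting barcodes, close to each other, but 15066 and 9164 in S-phase barcodes. With every barcode thinned to 1000 UMIs and in the 7 other alternatives, Cs was at 0.559 to 0.661 and Suclg1 at 0.627 to 0.771 of WT in resting barcodes, and at 0.570 to 0.624 and 0.388 to 0.438 in activated ones.

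The next question was how the members changed with state within 1 library. Depth per barcode differed between the states, with a median of 3850 UMIs in resting, 8548 in activated and 15066 in S-phase WT barcodes. In WT activated against resting Treg-like barcodes, Idh3a, Fh1, Suclg1 and Mdh2 were higher and Ogdh lower, 4 and 1 of 9, against 30.3% higher and 33.9% lower of 7078 genes. In KO, Idh3a, Fh1 and Mdh2 were higher and 0 lower, against 26.1% and 33.1% of 7888 genes. Idh3a had a ratio of 2.21 (1.86 to 2.63) in WT and 1.65 (1.45 to 1.89) in KO, and Fh1 had 1.93 (1.64 to 2.28) and 2.14 (1.88 to 2.44). Both genes were thus higher in activated barcodes of each library, but thinned to 1000 UMIs per barcode Idh3a in KO was at 1.16, within the limits. Mdh2 had 1.41 (1.33 to 1.49) and 1.30 (1.249 to 1.36), and Ogdh had 0.794 (0.711 to 0.886) and 0.824 (0.748 to 0.908), below resting in each library, the WT value past the limit under 6 of 8 alternatives. Suclg1 lay on opposite sides of 1, with 1.41 (1.30 to 1.53) in WT and, within the limits, 0.832 (0.757 to 0.914) in KO. The KO ratio divided by the WT ratio was 0.591 (0.523 to 0.669) for Suclg1, 0.746 (0.602 to 0.923) for Idh3a and between 0.893 for Dlst and 1.11 for Fh1 for the other 7 members, with approximate 95% counting intervals. Of those 7, only the interval of Mdh2, at 0.925 (0.862 to 0.992), excluded 1.

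The cycling barcodes, S-phase and G2/M together, were also set against resting ones. More members passed the fold limits than in activated barcodes in KO, but not in WT. In WT, Cs, Idh3a, Idh3g, Fh1 and Mdh2 were higher, 5 of 9, and 0 lower, against 30.1% higher and 35.6% lower of 7951 genes, with a median log2 ratio of 0.47 for the members and -0.06 for all genes. In KO, Cs, Idh3a and Fh1 were higher and Suclg1 lower, against 27.4% and 27.5% of 7947 genes, with medians of 0.21 and -0.02. Cs had a ratio of 1.43 (1.29 to 1.59) in WT and 1.38 (1.22 to 1.56) in KO. Thinned to 1000 UMIs per barcode, these became 1.02 and 1.247, both within the limits. Idh3a had 2.45 (2.11 to 2.86) and 1.72 (1.51 to 1.97), and Fh1 had 2.38 (2.07 to 2.74) and 1.87 (1.63 to 2.14). Suclg1 again lay on opposite sides of 1, with 1.23 (1.15 to 1.32) in WT, within the limits, and 0.677 (0.610 to 0.751) in KO. The KO ratio divided by the WT ratio was 0.549 (0.485 to 0.622) for Suclg1, 0.702 (0.576 to 0.857) for Idh3a and 0.784 (0.647 to 0.951) for Fh1. It was 0.806 (0.755 to 0.860) for Mdh2, 0.857 (0.776 to 0.948) for Idh3g and 0.961 (0.820 to 1.13) for Cs. The intervals of Cs, Idh3b, Ogdh and Dlst included 1. S-phase and G2/M barcodes entered the pool unequally, 567 and 559 in WT and 717 and 270 in KO.

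**Figure D4:**
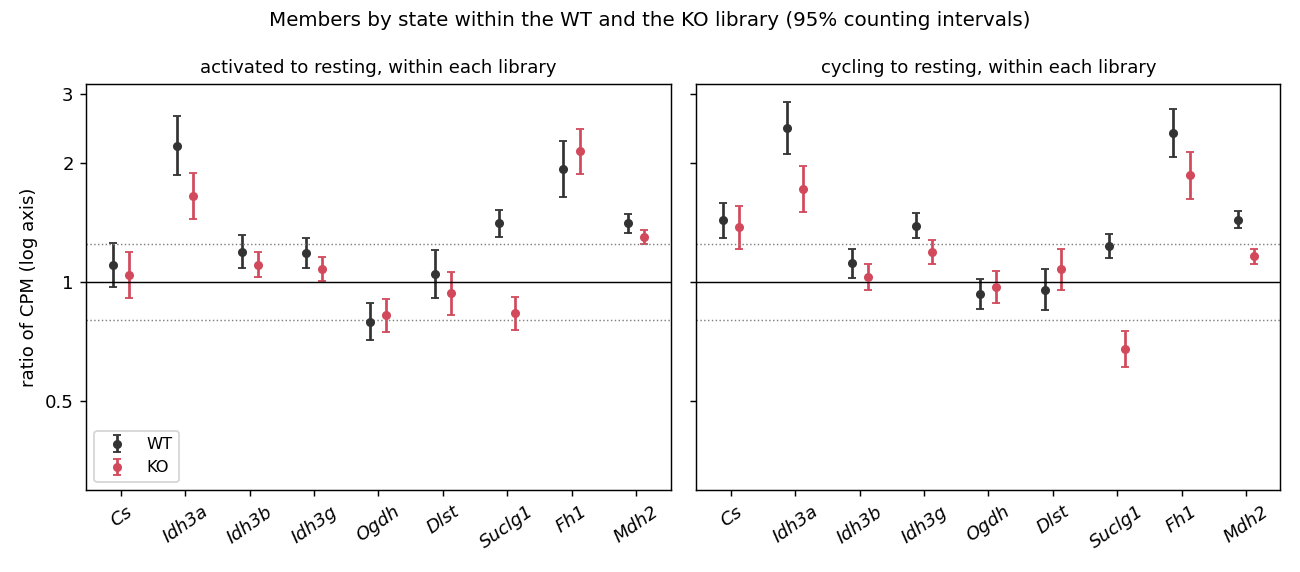
Ratio of CPM (log axis) of each member in activated (left) and cycling (right) to resting barcodes, in the WT library (dark points) and the KO library (red points), with exact conditional 95% intervals, a solid line at 1 and dotted lines at the fold limits. Suclg1 is above 1 in WT and below 1 in KO in both panels, and Idh3a and Fh1 are above 1 in both libraries.

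In WT effector against resting Treg-like barcodes, Idh3a, Idh3g and Fh1 were higher and 0 lower, against 18.2% higher and 22.8% lower of 7433 genes. Idh3g had a ratio of 1.45 (1.34 to 1.57), Idh3a of 1.40 (1.18 to 1.68) and Fh1 of 1.254 (1.06 to 1.48), the last just past the limit. Thinning took Idh3g to 1.23 and Fh1 to 1.12, both within the limits. Suclg1 had 1.22 (1.13 to 1.32) and Cs 0.994 (0.882 to 1.12), so that Cs did not differ detectably between these states in WT. In KO the effector values rest on 322 UMIs over all 9 members, and the interval of every member's ratio to resting included 1. There 0 members were lower and only Idh3b was higher, against 1921 lower and 1648 higher of 6920 genes. Idh3b was at 1.33 (0.991 to 1.74) on 53 KO effector UMIs, past the limit under 6 of 8 alternatives.

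The order of the states by level was read in each library with its neighbours in that order. In WT, Idh3a ran from 53.2 CPM in S-phase through activated, G2/M and effector to 20.3 CPM in resting barcodes, with overlapping intervals among the first 3 states and gaps below G2/M and below effector. The KO order of Idh3a was the same, from 43.7 to 24.2 CPM, with every pair of neighbours overlapping. Fh1 ran from 59.4 CPM in S-phase to 24.0 CPM in resting WT barcodes, with a gap only between activated and effector barcodes. In KO it ran from 46.7 CPM in activated to 21.8 CPM in resting barcodes, with a gap only between S-phase and G2/M barcodes. Mdh2 was lowest in resting barcodes of both libraries, and so was Idh3g, which was highest in G2/M barcodes. For both genes resting was apart from the next state in WT and overlapped the next, effector, in KO. The G2/M level of Idh3g overlapped the next one in WT and was apart from it in KO. Suclg1 was highest in activated barcodes in WT, at 154 CPM, and lowest in resting ones, at 109 CPM. In KO resting was highest at 72.3 CPM and G2/M lowest at 47.1 CPM, with activated, effector and S-phase barcodes in the same order as in WT, and of the neighbours only resting and activated were apart. Cs was highest in the S-phase and G2/M barcodes of both libraries, at 73.4 CPM in WT G2/M and 44.0 CPM in KO S-phase barcodes. Of its neighbours only S-phase and activated were apart in WT, and every pair overlapped in KO. Dlst, Ogdh and Idh3b had no pair of neighbouring states apart in either library.

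Of 8 other genes of the cycle, most lay near WT. In resting barcodes Sdhb and Sdhc, subunit genes of succinate dehydrogenase, were higher in KO, with ratios of 1.29 (1.22 to 1.38) and 1.33 (1.20 to 1.49). Suclg2, the GTP-forming beta subunit partner of Suclg1, was lower at 0.767 (0.651 to 0.905). The remaining 5 lay within the limits. Idh2, the NADP-dependent isocitrate dehydrogenase gene, had 1.16 (1.03 to 1.32), and Sdha 0.951 (0.879 to 1.03). Dld, which encodes the E3 component shared with pyruvate dehydrogenase, had 0.857 (0.743 to 0.989), Sucla2, the ATP-forming beta subunit gene, 0.888 (0.775 to 1.02), and Sdhd 1.06 (0.928 to 1.21). On the log2 scale the median over all 8 was 0.00, against -0.11 for the members.

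In activated barcodes the beta subunit partners of Suclg1 were at 0.945 (0.812 to 1.10) for Sucla2 and 1.16 (0.993 to 1.36) for Suclg2, while Suclg1 was at 0.391. In S-phase barcodes they were at 0.780 (0.665 to 0.914) and 1.05 (0.874 to 1.26), while Suclg1 was at 0.381. The 3 subunit genes of the ligase therefore had unequal ratios, and the intervals of both partners lay above that of Suclg1 in these states. Idh2 was higher in KO activated barcodes, with 22.7 (19.5 to 26.3) CPM in WT and 33.8 (30.4 to 37.5) in KO, a ratio of 1.49 (1.24 to 1.79). Sdhd was lower in S-phase barcodes at 0.738 (0.642 to 0.848). Of these 8 genes, 1 was lower and 2 higher in resting, 0 and 1 in activated, 2 and 0 in S-phase, 0 and 1 of 7 tested in G2/M, and 1 and 3 in effector barcodes, where each value rests on at most 74 KO UMIs. The shares of all genes lower and higher were 24.8% and 7.81% in resting, 20.9% and 9.25% in activated, 14.6% and 17.5% in S-phase, 21.5% and 20.2% in G2/M and 27.3% and 17.5% in effector barcodes, and counts over 8 genes are too small to be set apart from them.

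Around the cycle, 3 further lists covered pyruvate entry with 11 genes, amino acid and malate side paths with 9, and citrate export and the cytosolic side with 4. In resting barcodes 18 of these 24 genes had at least 200 UMIs, of which 2 were lower and 2 higher in KO, against 24.8% and 7.81% of all genes. Pdk1, which encodes a kinase that inhibits pyruvate dehydrogenase, was lower at 0.771 (0.692 to 0.859), as was Acly, which cleaves exported citrate in the cytosol, at 0.783 (0.691 to 0.889). Higher were Mdh1, the cytosolic malate dehydrogenase gene, at 1.28 (1.20 to 1.37), and Pdhx, a structural component of pyruvate dehydrogenase, at 1.27 (0.986 to 1.66), whose interval includes 1. Glud1, the glutamate dehydrogenase gene, was at 0.941 in resting and 0.788 in activated barcodes.

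**Figure D5:**
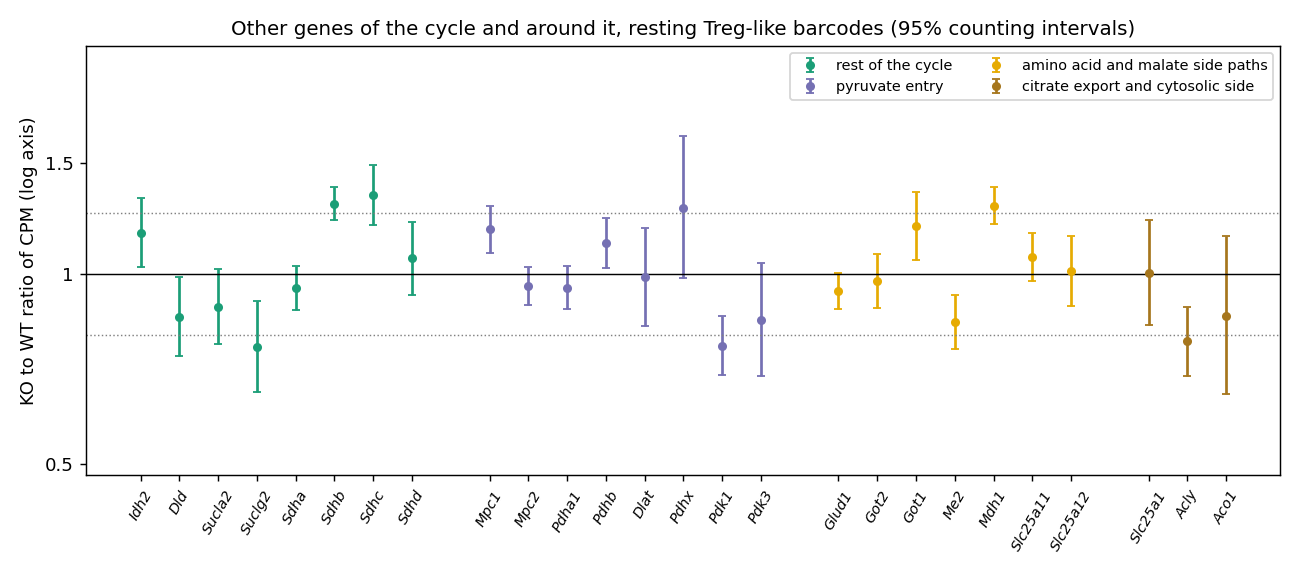
KO to WT ratio of CPM (log axis) in resting Treg-like barcodes of the other fixed genes with at least 200 UMIs, coloured by list, with exact conditional 95% intervals, a solid line at 1 and dotted lines at the fold limits. Suclg2, Pdk1 and Acly lie below the lower dotted line, Sdhb, Sdhc, Mdh1 and Pdhx lie above the upper dotted line, and the other genes lie between the lines.

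Clusters outside the named T cell states gave a comparison with cells that the sort was not meant to keep. Neutrophil-like barcodes fell into 2 clusters. In the one led by Elane and Prtn3, with 104 WT and 110 KO barcodes, Cs had 51.5 (41.7 to 63.0) and 47.9 (38.7 to 58.6) CPM, a ratio of 0.929 (0.691 to 1.248), and Suclg1 had 158 (140.2 to 177) and 139.5 (123 to 157) CPM, a ratio of 0.884 (0.747 to 1.05). Both intervals include 1, that of Suclg1 lay above the interval of resting Treg-like barcodes, and that of Cs overlapped it at its lower end. In the cluster led by Ngp and Camp the ratios were 1.46 (0.737 to 2.88) on 20 WT and 19 KO UMIs and 0.798 (0.482 to 1.29). Erythroid-like barcodes formed a larger cluster rich in early genes such as Rhd and Klf1 and a second one dominated by haemoglobin, and the libraries filled them unequally, so they were compared 1 by 1. The median log2 ratio of all genes over both was -0.32. In the larger erythroid-like cluster, with 199 WT and 339 KO barcodes, Cs had a ratio of 0.938 (0.740 to 1.19) and Suclg1 of 0.747 (0.611 to 0.910). That Suclg1 interval overlapped the one of resting and lay above the one of activated Treg-like barcodes. In the haemoglobin-rich cluster, with 87 and 258 barcodes, the ratios were 0.833 (0.315 to 2.44) for Cs and 0.417 (0.184 to 0.943) for Suclg1, which had 14 UMIs in each library. The 8 T cell markers summed to 673 CPM in WT and 1532 CPM in KO erythroid-like barcodes, and the part of these transcripts in the ratios was not tested. Zfp335 in erythroid-like barcodes had 14 UMIs in WT and 3 in KO, a ratio of 0.217 (0.0401 to 0.779), whose interval excludes 1. In neutrophil-like barcodes it had 22 and 13 UMIs, a ratio of 0.638 (0.295 to 1.32). B cell-like barcodes, 44 and 30, held 24 and 8 UMIs of Suclg1 and gave no usable ratio. In the unnamed cluster with most KO barcodes, which numbered 239 in WT and 4194 in KO, Cs had a ratio of 0.587 (0.389 to 0.923) and Suclg1 of 0.579 (0.423 to 0.811).

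The genes near the members on their chromosomes were read next. Within 50 kb of the 9 members 17 genes had at least 200 UMIs over T-lineage clusters, of which 3 were lower and 2 higher in KO, near the 21.6% and 11.4% of all genes. Suclg1 and Fh1 had no such neighbour. Cs had 7, and the nearest on its upstream side, Cnpy2, ends 10181 bases before Cs on the same strand (chromosome 10, 128322459 to 128327553). Cnpy2 had 106 CPM in WT and 27.0 CPM in KO, a ratio of 0.255 (0.240 to 0.271), lower than that of Cs. Pan2, the next gene on that side, had a ratio of 0.920 (0.798 to 1.06), and Coq10a, which lies 621 bases past the other end of Cs, had 1.15 (1.03 to 1.30). Over all T-lineage clusters the adjacent genes Cnpy2 and Cs were thus lower in KO between flanking genes that were not past the fold. In single states some ratios of the flanking genes lay past it, but these were not held to the limit of 200 UMIs and carry no interval. Pan2 was at 0.794 in resting and 0.271 in effector barcodes, and Coq10a at 1.35 in S-phase and 0.596 in effector barcodes. Both effector ratios rest on very few UMIs from 60 KO barcodes, with under 200 UMIs over both libraries, and are not calls. Their ratios in the other states lay within the limits. Over all T-lineage clusters, which mix states in unequal shares, the other neighbours past the fold were Ankrd52 near Cs and Acsbg1 near Idh3a, both lower, and Stat2 near Cs and Nop56 at Idh3b, both higher. Within states Nop56 was at 1.18 in resting, 1.11 in activated and 1.23 in effector barcodes, and at 1.55 in S-phase and 1.58 in G2/M barcodes. Acsbg1 was at 1.01 in activated and Ankrd52 at 0.836 in S-phase barcodes, while Stat2 was past the upper limit in every state.

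Likeness of profile was read over 23 groups of at least 50 barcodes, each 1 cluster in 1 library, as Pearson's r of log2(CPM + 1). These groups share libraries and depth and include erythroid-like and neutrophil-like clusters, so r is a description only. The 5 of 10534 genes most like Suclg1 were Aimp1 (r = 0.953), Cnpy2 (0.946), Atp5l (0.946), Ndufa4 (0.945) and Selenof (0.942). Atp5l, an ATP synthase subunit gene, and Ndufa4, a respiratory chain subunit gene, are among those that the study selected on these libraries together with Suclg1. The genes most like the summed members were Chchd2 (0.989), Luc7l3 (0.979), Cox4i1 (0.978), Cox6b1 (0.978) and Arl6ip4 (0.977). Among the members, Idh3a and Fh1 had the most similar profiles (r = 0.950), while Suclg1 had r between 0.542 and 0.706 with the other 8.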

How the data were processed

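The deposited values are whole UMI counts for each gene in each barcode, not normalized. The authors obtained them from 10x Genomics reads with Cell Ranger 5.0.1 against mm10, per the submitters' processing notes. Both libraries list 32285 features, and totals were 64567991 UMIs in WT and 65480052 in KO. The tables still held 3 barcodes under 300 genes in each library and barcodes above the mitochondrial limit. Barcodes needed 300 genes or more and a mitochondrial share of UMIs not above 5%, and the 5% of WT and 8% of KO barcodes with the highest Scrublet scores (scanpy 1.11.5) were left out. These fractions match the doublet numbers in the study's text, while its methods give them the other way round. Counts were scaled to 10000, log-transformed, and reduced from 2000 variable genes to 30 components (scikit-learn 1.9.0), and a graph over 20 neighbours was clustered at Leiden resolution 0.5 (igraph 0.11.9). Members, the other fixed genes, haemoglobin, granule, sex-linked, ribosomal RNA-like and mitochondrial genes and Zfp335 were not variable genes. No batch correction was run, and a cluster mostly of 1 library may be that library.

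Clusters took the class with most marker genes among their 10 leading genes, if at least 50% of its markers and 3 or more were raised 1.5-fold. A cluster with no such leading gene needed 75%. The markers were fixed, but this rule was set after the data were seen. The members, lists and markers were chosen with earlier results of these data known. UMIs were summed per library and class. Ratios compare sums, list medians and ratios under alternatives add 0.5 UMI (0.01 CPM to single-barcode means), and genes needed 200 UMIs over both groups. Named were all members, other genes of the cycle, genes of other lists past the fold limits in resting barcodes, and the 5 genes most like Suclg1 and the summed members. Glud1, Cnpy2 and other neighbours were named after their values were seen. The interval code was tested on simulated data. Gene positions are from GENCODE vM21 (GRCm38) and promoter windows from RefSeq (GRCm38.p6), which held 8 of the 9 members. The alternatives tried are listed with their effects under the processing heading. Some items of the lists are not reported here and are left out of their counts.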

Additional observations from a re-analysis of the deposited data

Results flagged for a closer look

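Suclg1 lay on opposite sides of 1 in the 2 libraries with state. Its ratio of activated to resting barcodes was 1.41 in WT, past the fold limit, and 0.832 in KO, within it. In cycling against resting barcodes it was at 1.23 in WT and 0.677 in KO. All 4 counting intervals exclude 1, and with 1 library per genotype the difference itself was not tested.

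Idh3a went opposite ways between genotypes in different states, with a KO to WT ratio of 1.20 in resting, 0.821 in S-phase and 0.779 in G2/M barcodes. The difference between the states was not tested. Thinned to 1000 UMIs per barcode the ratios were 1.43, 1.20 and 2.07, all above 1, and the G2/M ratio was 2.21 at clustering resolution 1.0.

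Barcodes with over 5% mitochondrial UMIs were left out of the report, and they hold the same members. Cs had 62.4 (57.7 to 67.4) CPM in the WT barcodes of this kind with at least 300 genes and 43.4 (38.9 to 48.3) CPM in the KO ones, a ratio of 0.696 (0.608 to 0.795). Suclg1 had 98.0 (92.0 to 104) and 49.96 (45.1 to 55.2) CPM, a ratio of 0.510 (0.453 to 0.574). Mdh2 had a ratio of 1.27 (1.19 to 1.35) and Dlst of 0.997 (0.883 to 1.13) there. These barcodes enter the states only in the alternative without the mitochondrial limit.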

How the results depend on the processing

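No paired analysis was possible because each genotype has 1 library and the samples carry no replicate numbers that pair them. The 8 alternatives kept likely doublets, dropped the mitochondrial limit, clustered at resolution 1.0, left the naming markers out of clustering, thinned barcodes to 1000 UMIs, averaged single-barcode CPM, centred ratios on the median gene, or left haemoglobin, granule, mitochondrial and ribosomal RNA-like genes out of totals. Of 93 median log2 ratios over the 9 members, 87 moved by less than the counting interval and 6 by more. The median in G2/M barcodes went from -0.03 to -0.31 at resolution 1.0, and that over all T-lineage clusters from -0.16 to 0.025 with single-barcode CPM. Thinning gave 0.43 for activated against resting in WT (otherwise 0.26), -0.039 in KO (otherwise 0.11) and 0.069 for cycling against resting in KO (otherwise 0.21), for which single-barcode CPM gave 0.15. Of 837 ratios of single members, 734 moved by less than the counting interval. The ratio lay on the other side of 1 from the first value in 64, of which 21 after thinning, and in 62 of these the reported ratio lay within the fold limits. The other 2 were of Idh3a in G2/M barcodes, with a log2 KO to WT ratio of 1.15 at resolution 1.0 and 1.05 after thinning. The cause of these changes was not tested.

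Cs and Suclg1 stayed past the fold limit, lower in KO, under all 8 alternatives in resting, activated and S-phase barcodes and under all 5 with a value in G2/M barcodes. In effector barcodes Suclg1 did so too, at 0.425 to 0.548, but Cs did so under 6 of 8, at 0.553 to 0.914, the highest after thinning. No G2/M cluster was named when doublets were kept, when the mitochondrial limit was dropped or when naming markers were left out, so these gave no G2/M value. Suclg1 in cycling against resting WT barcodes passed the fold under 2 of 8. The share of all genes past the fold moved by over 1.5 times in 3 cases, to 13.0% higher in resting barcodes after centring, 13.4% lower in activated barcodes after thinning and 11.7% lower in G2/M barcodes at resolution 1.0. Thinning left out 989 of 1149 WT and 972 of 4946 KO unnamed barcodes, and at most 72 of any named T cell state. The 60 KO effector barcodes held 11 to 118 UMIs per member, so that small differences were not detectable in that state.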

Other observations

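Genes that feed or drain the cycle differed between the libraries in states other than resting. In activated Treg-like barcodes Pdk3, a pyruvate dehydrogenase kinase gene, was lower in KO at 0.647 (0.531 to 0.786), and in S-phase barcodes at 0.686 (0.567 to 0.826). Slc25a12 and Slc25a13, which encode the mitochondrial aspartate-glutamate carriers, were lower in activated barcodes at 0.728 (0.604 to 0.878) and 0.732 (0.571 to 0.939), and Slc25a13 in S-phase barcodes at 0.573 (0.430 to 0.757). Glud1 was lower in activated barcodes at 0.788 (0.720 to 0.862), in S-phase barcodes at 0.784 (0.714 to 0.860) and in G2/M barcodes at 0.799 (0.697 to 0.914). Higher in KO were Pdhb, a pyruvate dehydrogenase E1 subunit gene, at 1.36 (1.21 to 1.53) in activated and 1.35 (1.13 to 1.60) in G2/M barcodes, and Got1, the cytosolic aspartate aminotransferase gene, at 1.32 (1.16 to 1.505) and 1.30 (1.05 to 1.61). Got2, its mitochondrial counterpart, was lower in G2/M barcodes at 0.719 (0.604 to 0.852), as was Me2, a mitochondrial malic enzyme gene, at 0.739 (0.604 to 0.900). These genes were chosen after their values were seen, and the background shares of the report apply to them.

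The unnamed T-lineage clusters were left out of the comparisons of states. In the largest of them, led by myeloid granule and haemoglobin genes, Mdh2 had a KO to WT ratio of 1.13 (0.931 to 1.39), Idh3g of 1.36 (0.972 to 1.97) and Fh1 of 0.918 (0.514 to 1.81), all with intervals that include 1, beside the lower Cs and Suclg1.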
